A study of Mus musculus with 23 samples.

Results

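Genes that set the electrical rhythm and the calcium cycle of heart muscle were examined in methylated DNA captured from the left ventricle and the spleen of mice. The group held 35 genes chosen by symbol, and each symbol matched 1 of the 41388 windows of 3 kb at gene starts that both deposited count tables list. By role, 5 of the genes act in calcium release from the sarcoplasmic reticulum, 6 in calcium uptake and extrusion, 5 in calcium channels, 8 in voltage-gated potassium channels, 6 in inward rectifier potassium channels, 2 in pacemaker channels and 3 in connexins. The male C57Bl/6 mice were housed singly and belonged to a high fibre group fed resistant starch, an acetate group given 100 mM magnesium acetate to drink, or a control group whose diet lacked resistant starch. These regimens began 3 weeks ahead of an operation to place minipumps, which all groups share, and what the pumps held is not given in the sources used here. Heart libraries numbered 4 for high fibre, 3 for acetate and 4 for control, and spleen libraries numbered 4 in each of those groups. The labels do not state that libraries of a group came from separate mice, so the p-values below measure the spread between these libraries. The MethylMiner capture pulled DNA fragments down with a protein that recognises methylated CpG, so each library counts fragments that carry methylated CpG sites (a C followed by a G). More reads in a window therefore mean more captured DNA relative to the rest of that library. No unenriched input was analysed here, so the counts give no absolute methylation level, and neither table measures expression. In bulk tissue, a difference in the mix of cells and a difference in capture per cell cannot be told apart.

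In a heart muscle cell, the wave of excitation opens calcium channels at the cell surface, and the calcium that enters triggers a larger release from the sarcoplasmic reticulum through the ryanodine receptor. The muscle relaxes when the pump encoded by Atp2a2 returns calcium to the reticulum and the exchanger encoded by Slc8a1 moves it out of the cell. Potassium channels end the action potential and hold the resting voltage, Hcn channels drive pacemaker cells, and connexins pass current from cell to cell. Methylation of CpG-rich gene starts often goes with low expression as a general rule. The spleen is a lymphoid organ and serves here as the second tissue.

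Promoters are shown for the members that had the smallest p-values between heart and spleen on the control diet and that could be matched by symbol to RefSeq (build GRCm38.p6), because CpG sites are what the capture binds. Gene positions given further on are RefSeq's on the same build. Each sequence runs 5′ to 3′ from 250 bases before to 50 after the annotated start, and capitals mark every CG, a motif that reads the same on both strands. At least 1 CG stood in 94.6% of 32851 mouse promoters of this length, and the median promoter held 7. The Jph2 promoter lies at chr2:163397944-163398243 on the minus strand and holds 7 CG. That of Kcnd2 lies at chr6:21215096-21215395 on the plus strand and holds 26, and that of Kcnd3 lies at chr3:105451640-105451939 on the plus strand and holds 25. The Kcnh2 promoter at chr5:24329542-24329841 on the minus strand holds 19, and it belongs to a start 22093 bases inside the edge of the annotated gene. The Slc8a1 promoter at chr17:81738338-81738637 on the minus strand holds 9, and the Cacnb2 promoter at chr2:14604056-14604355 on the plus strand, 445 bases inside the gene's edge, holds 35. How a 3 kb window is placed around its start is not given in the sources used here, so the overlap of a window with its printed promoter is not known.
Jph2: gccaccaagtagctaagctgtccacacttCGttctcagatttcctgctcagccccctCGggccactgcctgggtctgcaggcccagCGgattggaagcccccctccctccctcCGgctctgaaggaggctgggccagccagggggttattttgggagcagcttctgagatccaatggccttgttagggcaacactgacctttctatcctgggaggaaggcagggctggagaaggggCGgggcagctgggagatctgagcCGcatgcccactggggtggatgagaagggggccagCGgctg
Kcnd2: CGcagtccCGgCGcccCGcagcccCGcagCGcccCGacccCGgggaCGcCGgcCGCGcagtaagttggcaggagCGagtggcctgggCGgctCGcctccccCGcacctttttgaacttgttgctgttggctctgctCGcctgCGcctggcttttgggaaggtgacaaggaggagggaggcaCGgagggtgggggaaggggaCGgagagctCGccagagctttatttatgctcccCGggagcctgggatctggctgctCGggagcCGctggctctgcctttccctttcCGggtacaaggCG
Kcnd3: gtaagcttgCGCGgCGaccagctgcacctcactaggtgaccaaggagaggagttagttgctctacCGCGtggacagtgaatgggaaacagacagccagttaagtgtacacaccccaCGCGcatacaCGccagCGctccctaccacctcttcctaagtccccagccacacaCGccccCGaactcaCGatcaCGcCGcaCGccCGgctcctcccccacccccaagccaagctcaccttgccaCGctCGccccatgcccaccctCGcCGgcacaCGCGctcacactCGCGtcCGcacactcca
Kcnh2: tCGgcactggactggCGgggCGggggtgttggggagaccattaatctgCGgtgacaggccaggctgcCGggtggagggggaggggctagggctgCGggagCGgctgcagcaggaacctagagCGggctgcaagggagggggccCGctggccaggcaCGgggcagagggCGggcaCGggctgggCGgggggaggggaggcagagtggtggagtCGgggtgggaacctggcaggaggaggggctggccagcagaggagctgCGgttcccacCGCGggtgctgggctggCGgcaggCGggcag
Slc8a1: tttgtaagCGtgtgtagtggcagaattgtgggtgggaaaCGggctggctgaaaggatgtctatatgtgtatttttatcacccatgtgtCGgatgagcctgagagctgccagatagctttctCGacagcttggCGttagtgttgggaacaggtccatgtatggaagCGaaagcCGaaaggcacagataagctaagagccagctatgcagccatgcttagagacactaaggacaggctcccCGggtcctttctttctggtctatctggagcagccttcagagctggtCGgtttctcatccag
Cacnb2: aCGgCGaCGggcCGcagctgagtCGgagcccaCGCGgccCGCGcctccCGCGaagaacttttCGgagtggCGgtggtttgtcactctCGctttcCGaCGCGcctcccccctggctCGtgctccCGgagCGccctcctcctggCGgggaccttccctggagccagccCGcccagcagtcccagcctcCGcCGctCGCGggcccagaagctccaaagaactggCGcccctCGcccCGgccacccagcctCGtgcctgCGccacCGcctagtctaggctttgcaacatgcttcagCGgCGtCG

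Libraries held 4121379 to 8598836 counted reads in heart and 4364397 to 9870625 in spleen, and the 35 members took 3574 to 6600 of them per heart library and 3143 to 6436 per spleen library. A single window, that of the predicted gene Gm10800, took 19.0% ± 1.70 of the reads in high fibre hearts (SD, n = 4), 33.8% ± 10.5 in acetate hearts (n = 3) and 42.3% ± 5.80 in control hearts (n = 4), and 48.2% to 61.2% in the spleen libraries. Heart acetate replicate 1 stood apart, with a median of 26 reads per window and 17.1% of windows at 0. Below, CPM stands for read counts brought to a common library size by trimmed mean of M-values (TMM) scaling, and a call is an adjusted p under 0.05 in edgeR's quasi-likelihood test with Benjamini-Hochberg adjustment over all tested windows. Log2 fold changes carry a prior count of 2. The SE given with them is the absolute log2 fold change divided by the square root of the test's F statistic. It is not taken from the fit itself. The prior count shrinks the fold changes of sparse windows, so this SE can be too small there.

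Between heart and spleen, the genes did not move in a single direction. Under TMM scaling, the starts of Jph2, Slc8a1, the potassium channel genes Kcnd2, Kcnd3, Kcnh2 and Kcnj11, and the calcium channel subunit genes Cacna1c, Cacna1d, Cacnb1 and Cacnb2 yielded fewer captured reads in heart on every diet, as did Kcnip2. Those of Asph, Pln, Sln, Cacna2d1, Kcna4, Kcna5, Kcnj2, Kcnj5, Hcn2 and Hcn4 yielded more in heart on every diet. On high fibre, 31 of 35 members were called, 17 higher and 14 lower in heart, against 80.7% of all 33982 tested windows (45.1% higher and 35.6% lower), and 29 did not overlap between tissues, against 73.7%. On acetate, 25 were called, 13 higher and 12 lower, against 63% of windows (34% and 29%), and 19 did not overlap, against 47.8%. On control, 26 were called, 12 higher and 14 lower, against 72.7% of windows (40% and 32.7%), and 24 did not overlap, against 67%. These shares lie near those of all windows, so the counts alone do not set the genes apart. The median log2 fold change of the members was 0.21, 0.11 and 0.00 on high fibre, acetate and control, beside 0.24, 0.19 and 0.19 over all windows. Calls that held on all 3 diets numbered 10 higher and 11 lower among the members, beside 29.6% and 26.9% of all windows. With cyclic loess scaling, described further on, 1 of the 10 higher (Asph) and 6 of the 11 lower (Jph2, Slc8a1, Kcnd2, Kcnd3, Kcnh2 and Kcnj11) kept their call on all 3 diets, and the other 9 and 5 did not. Pln, Cacna2d1, Kcna4, Kcnj2, Hcn4, Trdn and Kcnj3 were too sparse in spleen to pass the count filter there and were tested through their heart reads, the tissue where they were high. They include 5 of the 10, and on high fibre and on acetate all of them were among the members called higher.

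Among the release genes, Jph2 had the most negative difference. It encodes junctophilin 2, which tethers the reticulum to the surface membrane (ENSMUSG00000017817). On high fibre its window held 8.63, 9.06, 11.004 and 8.89 CPM in heart, against 50.6, 37.9, 36.9 and 39.3 CPM in spleen. On acetate it held 10.6, 8.73 and 7.82 CPM in heart, against 36.3, 33.9, 32.9 and 42.5 CPM in spleen. On control it held 11.9, 8.53, 13.3 and 12.7 CPM in heart, against 43.6, 32.7, 36.8 and 38.7 CPM in spleen. No heart library reached any spleen library, and the log2 fold changes were -2.10 ± 0.15, -2.003 ± 0.17 and -1.68 ± 0.15 (SE) on high fibre, acetate and control, the last with an adjusted p of 1.59e-11 in edgeR. Asph, whose products include junctin, a partner of the ryanodine receptor, was higher in heart, at 1.09, 0.58 and 0.48 on the 3 diets in the same order. Ryr2, the ryanodine receptor itself, was lower on acetate and control, at -0.48 and -0.41, and was not called on high fibre at -0.07. With loess it was called on no diet. Casq2, the calcium store protein of the reticulum, had -0.33 on high fibre and -0.34 on control, both called lower, but was called higher with loess, at 0.63 and 0.33, so its direction rests on the scaling. Trdn, triadin, sparse in spleen, had 2.24 on high fibre and 1.25 on acetate, both called, and 0.80 on control without a call. Its acetate call was lost without heart replicate 2 or 3 or spleen replicate 4, and with loess it was called on no diet.

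The uptake and extrusion genes split. Slc8a1, the sodium-calcium exchanger (ENSMUSG00000054640), held 14.02, 11.6, 12.3 and 15.3 CPM in high fibre hearts, against 41.4, 29.7, 25.04 and 28.5 CPM in high fibre spleens. In acetate hearts it held 14.1, 13.2 and 15.3 CPM, against 27.2, 23.5, 26.97 and 27.6 CPM in acetate spleens. In control hearts it held 14.3, 16.5, 15.5 and 12.7 CPM, against 28.2, 28.01, 24.3 and 27.1 CPM in control spleens. Every heart library lay below every spleen library of its diet, with log2 fold changes of -1.21 ± 0.14, -0.88 ± 0.16 and -0.85 ± 0.14 (SE). Sln, sarcolipin, a small inhibitor of the reticulum pump (ENSMUSG00000042045, gene at chr9:53850251-53853849), went the other way. On high fibre it held 9.83, 9.06, 9.88 and 9.93 CPM in heart, against 3.51, 3.88, 2.98 and 4.63 CPM in spleen. On control it held 9.27, 9.08, 9.43 and 6.94 CPM in heart, against 3.03, 2.82, 3.26 and 3.87 CPM in spleen. On both diets the tissues did not overlap, at log2 fold changes of 1.29 ± 0.23 and 1.36 ± 0.23 (SE). On acetate Sln held 7.65, 7.89 and 8.43 CPM in heart, against 3.75, 6.02, 7.55 and 1.73 CPM in spleen, a smaller difference of 0.81 that was lost without spleen acetate replicate 4 (adjusted p = 0.0631 in edgeR). Pln, phospholamban, the other small inhibitor of that pump, sparse in spleen, was higher in heart on all diets, at 2.80, 1.29 and 1.18. With loess, Sln was called higher on high fibre and control only, and Pln on high fibre only. The pump gene itself, Atp2a2, was called higher on high fibre at 1.11, with 0.11 on acetate and 0.37 on control without a call. With loess it turned to -0.33 without a call on high fibre and was called lower on acetate and control, at -0.82 and -0.71. Fxyd1, phospholemman, a regulator of the sodium pump, was lower on high fibre at -0.79, and Camk2d, a calcium-dependent kinase, was higher there at 0.37.

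Under TMM scaling all but 1 of the calcium channel subunit genes were called lower in heart, but loess did not keep this on all 3 diets for any of them. With loess, Cacna1c was called higher on all 3, at 0.75, 0.42 and 0.41, Cacna1d was called on none, Cacnb1 was called lower on high fibre only, at -0.47, and Cacnb2 was called higher on high fibre, at 0.40. Under TMM, Cacna1c and Cacna1d, which encode pore subunits of L-type channels, had -0.48 and -0.66 on high fibre, -0.38 and -0.38 on acetate, and -0.44 and -0.56 on control. Cacnb2, a beta subunit that brings the pore to the membrane (ENSMUSG00000057914), held 20.1, 19.9, 15.9 and 19.6 CPM in control hearts, against 33.6, 32.4, 30.8 and 28.4 CPM in control spleens. Its tissues did not overlap on control, at -0.72 ± 0.13 on the log2 scale (SE, adjusted p = 8.55e-06 in edgeR). Cacnb1, another beta subunit (ENSMUSG00000020882, gene at chr11:98001508-98023034), held 28.2, 24.4, 26.99 and 26.8 CPM in high fibre hearts, against 86.8, 78.7, 72.9 and 73.4 CPM in high fibre spleens. Heart lay below spleen in every library there, at -1.54 ± 0.15 (SE, adjusted p = 5.01e-11 in edgeR), with -0.64 on acetate and -0.75 on control. The exception was Cacna2d1, an accessory subunit, which was called higher in heart on all diets, though on high fibre only with loess. It was too sparse in spleen to pass the count filter there and was tested through its heart reads. It had 0, 0, 0 and 1 reads in the high fibre spleens and 24, 26, 23 and 30 reads in the high fibre hearts.

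Of the voltage-gated potassium channel genes, Kcnd2, Kcnd3, Kcnh2 and Kcnip2 were lower in heart on all diets and Kcna4 and Kcna5 higher. Kcnd2 and Kcnd3 encode pores of the transient outward current, which shapes the early action potential, and Kcnh2 encodes the pore of the rapid delayed rectifier. Kcnd2 (ENSMUSG00000060882) held 14.6, 15.97, 15.2 and 15.9 CPM in high fibre hearts, against 73.1, 48.8, 31.7 and 63.6 CPM in high fibre spleens. It held 23.3, 16.02 and 14.3 CPM in acetate hearts, against 58.2, 37.5, 39.9 and 63.3 CPM in acetate spleens. In control tissues it held 19.5, 12.6, 14.9 and 15.5 CPM in heart, against 80.6, 49.6, 54.7 and 55.04 CPM in spleen. Hearts stayed below spleens on each diet, at -1.80 ± 0.20, -1.50 ± 0.22 and -1.91 ± 0.20 (SE). Kcnd3 (ENSMUSG00000040896) held 31.8, 34.6, 32.8 and 31.3 CPM in high fibre hearts, against 108, 84.4, 73.9 and 105 CPM in high fibre spleens. It held 42.2, 30.1 and 34.3 CPM in acetate hearts, against 84.8, 60.98, 80.9 and 105 CPM in acetate spleens. In control tissues it held 39.9, 35.4, 40.2 and 37.99 CPM in heart, against 126, 69.96, 81.5 and 77.2 CPM in spleen. The groups again did not overlap, at -1.50 ± 0.16, -1.23 ± 0.18 and -1.20 ± 0.16 (SE). Kcnh2 (ENSMUSG00000038319) held 35.6, 33.96, 34.99 and 32.4 CPM in high fibre hearts, against 166, 114, 118 and 138 CPM in high fibre spleens. It held 57.3, 38.1 and 35.2 CPM in acetate hearts, against 117, 111, 122 and 173 CPM in acetate spleens. In control tissues it held 53.1, 40.5, 39.8 and 45.8 CPM in heart, against 183, 108, 131 and 121 CPM in spleen. Its hearts too lay below all spleens of their diet, at -1.96 ± 0.17, -1.59 ± 0.19 and -1.59 ± 0.17 (SE). Kcnip2, the accessory subunit of the Kcnd pores, was lower by less, at -0.98, -0.56 and -0.54, and with loess was called higher on control, at 0.21, and not on the other diets. Kcna4 and Kcna5 are pores of other such channels. Kcna4, sparse in spleen, stood at 2.32, 1.01 and 1.32, and Kcna5 at 0.86, 0.57 and 0.49. With loess both were called on high fibre only. Kcnq1, the pore of the slow delayed rectifier, was higher on high fibre at 0.50, whereas Kcne1, its accessory subunit, was lower on high fibre and control at -0.64 and -0.36. Loess turned Kcne1 to 0.09 and 0.15 there without a call, and called it higher on acetate, at 0.42.

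**Figure D1:**
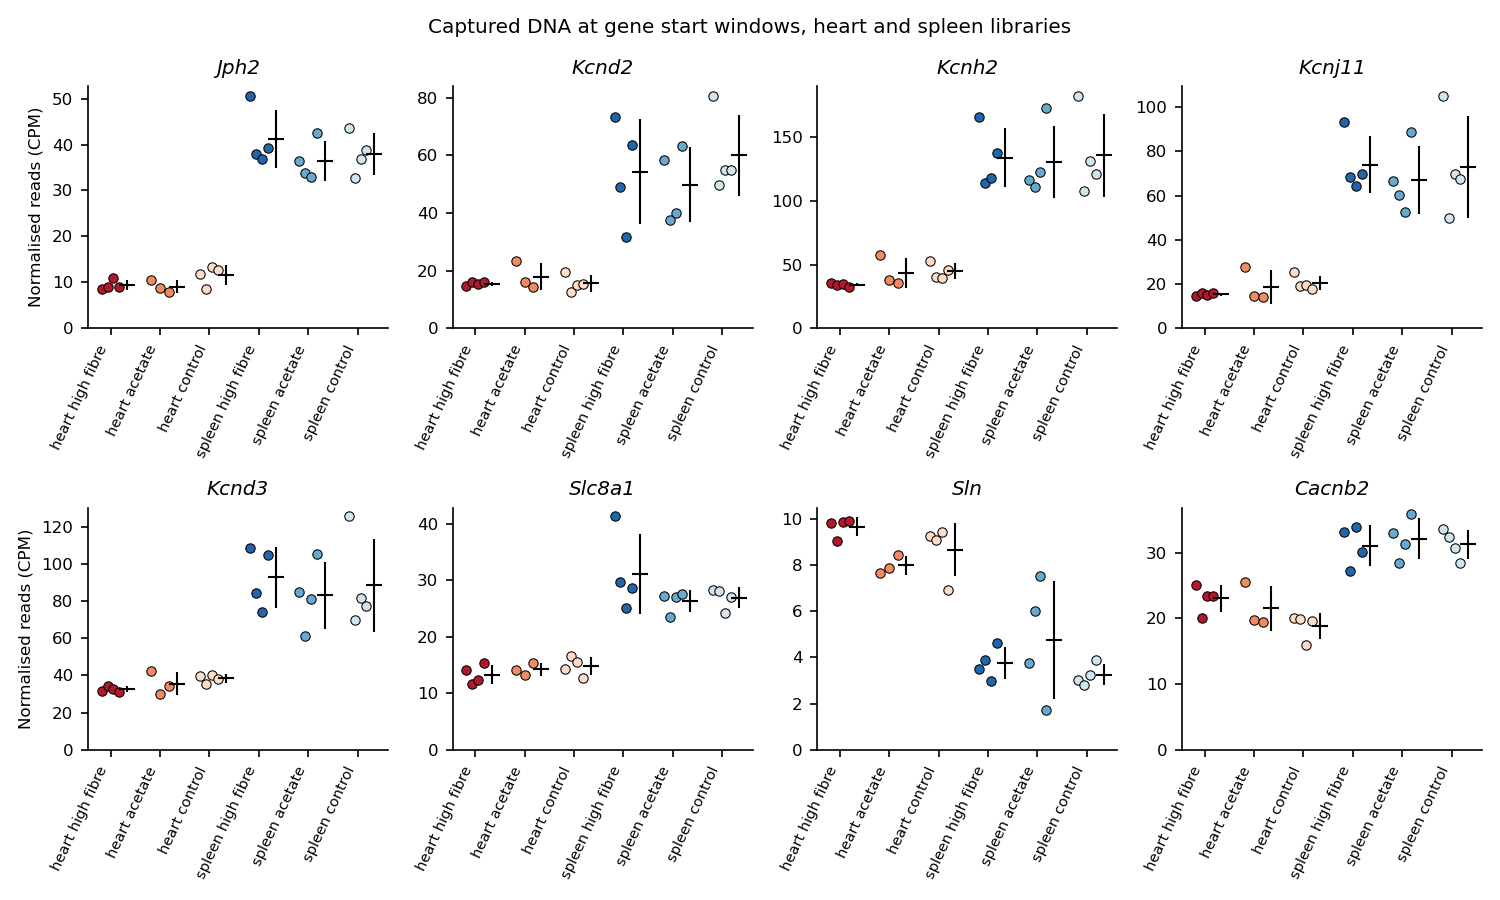
Captured reads at 8 gene starts, in TMM-scaled CPM computed over both tissues, with heart groups left of spleen groups and high fibre, acetate and control within each tissue. Points are libraries and bars are means ± SD (n = 4, but 3 for acetate hearts). For Jph2, Kcnd2, Kcnh2 and Kcnj11 no heart point reaches a spleen point of the same diet.

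Of the inward rectifiers, Kcnj11 alone was lower in heart on all diets. It encodes the pore of the ATP-sensitive potassium channel, which links cell metabolism to membrane voltage (ENSMUSG00000096146, gene at chr7:46097123-46100952). High fibre hearts held 14.5, 15.8, 15.05 and 15.8 CPM, against 93.2, 68.5, 64.5 and 69.8 CPM in high fibre spleens. Acetate hearts held 27.6, 14.5 and 14.2 CPM, against 66.7, 60.2, 52.6 and 88.5 CPM in acetate spleens. Control hearts held 25.3, 19.3, 19.6 and 17.7 CPM, against 105, 49.7, 69.9 and 67.3 CPM in control spleens. The log2 fold changes were -2.25 ± 0.20, -1.86 ± 0.22 and -1.81 ± 0.19 (SE), and the fitted level on control was 3.50-fold lower in heart. Kcnj8, the other pore of that channel family, was not called on any diet, at 0.21, 0.29 and 0.29. Kcnj2, a main pore of the current that holds the resting voltage, sparse in spleen, was higher in heart at 1.71, 1.16 and 1.13. So was Kcnj5, a pore of the acetylcholine-gated channel, at 1.21, 0.86 and 0.84. With loess, Kcnj2 was called on no diet and Kcnj5 on high fibre only. Both pacemaker channel genes were called higher on all diets under TMM and on none with loess. Hcn2 held 4.64, 5.14, 5.74 and 5.43 CPM in control hearts, against 1.86, 0.422, 2.44 and 1.29 CPM in control spleens, and its tissues did not overlap. Hcn4 held 2.92, 3.61, 5.30 and 5.18 CPM in control hearts, against 2.33, 1.55, 0.326 and 0.430 CPM in control spleens, low values in both tissues that also did not overlap. Among connexins, Gja5 was called on no diet, Gjc1 was higher on high fibre and control at 0.61 and 0.73, and Gja1 was higher on high fibre at 1.06, with 0.01 on acetate and -0.13 on control. Loess kept both Gjc1 calls, removed the high fibre call of Gja1 and called Gja1 lower on acetate and control, at -0.75 and -1.02.

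The sign of a tissue difference moved with the abundance of a window. On control, the median log2 fold change of heart over spleen was 1.397 in the second decile of windows by mean CPM (the first being the least abundant), 0.47 in the fifth and -0.78 in the highest decile. Kcnd2, Kcnd3, Kcnh2 and Kcnj11 belong to the highest decile, Jph2 and Cacnb2 to the ninth, Slc8a1 to the eighth and Sln to the fifth. Kcnd2, Kcnj11, Jph2, Kcnh2, Kcnd3 and Slc8a1 lay further below 0 than the median window of their abundance (-0.67 in the ninth decile and -0.47 in the eighth), while Cacnb2 at -0.72 lay near the median of its own. Cyclic loess scaling, which removes a trend with abundance, left 14 members higher and 8 lower on high fibre, beside 28.1% and 26.4% of all windows. It left 6 and 9 on acetate, beside 21.4% and 21.3%, and 9 and 9 on control, beside 27% and 25%. With it, 7 members were lower on all 3 diets (Jph2, Slc8a1, Fxyd1, Kcnd2, Kcnd3, Kcnh2 and Kcnj11) and 5 were higher (Casq2, Asph, Camk2d, Cacna1c and Kcnj12), beside 18.1% and 15.9% of all windows. Scaling to library totals, in which the Gm10800 reads count, moved the median of all windows to 1.77 on high fibre, 1.09 on acetate and 1.03 on control. Called members then split 27 higher and 3 lower on high fibre, beside 85.2% and 2.57% of windows, 25 and 4 on acetate, beside 69.9% and 3.98%, and 25 and 4 on control, beside 68.8% and 6.08%. Of the 8 settings run, Jph2, Kcnh2 and Kcnj11 were called lower on all 3 diets in all 8. When 1 library was left out at a time, the calls of Jph2, Slc8a1, Kcnd2, Kcnd3, Kcnh2, Kcnip2, Kcnj11, Kcnj5, Cacnb1, Cacnb2, Cacna2d1, Asph and Hcn4 held in every fit on all 3 diets. On high fibre, Casq2 was lost without heart replicate 4 or spleen replicate 3, and Fxyd1 without heart replicate 3 or spleen replicate 3. On control, Ryr2 was lost without heart replicate 2 or 3 or spleen replicate 1 or 4, and Kcna5 without spleen replicate 3 or 4. On acetate, with 3 hearts, leaving out heart replicate 2 or 3 lost 6 calls each, those of Ryr2, Trdn, Pln, Cacna1c, Kcnj3 and Hcn2 without replicate 2 and those of Trdn, Cacna1d, Kcna4, Kcna5, Kcnj2 and Kcnj3 without replicate 3. Without acetate heart replicate 1, Ryr2, Kcna5 and Kcnj12 were lost, and 1 or more of Ryr2, Trdn, Sln, Kcna4, Kcna5, Kcnj3, Kcnj12 and Hcn2 were lost without a given acetate spleen. The acetate call of Kcnj3 was also lost without heart control replicate 2 or 4 or heart high fibre replicate 1 or 2.

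**Figure D2:**
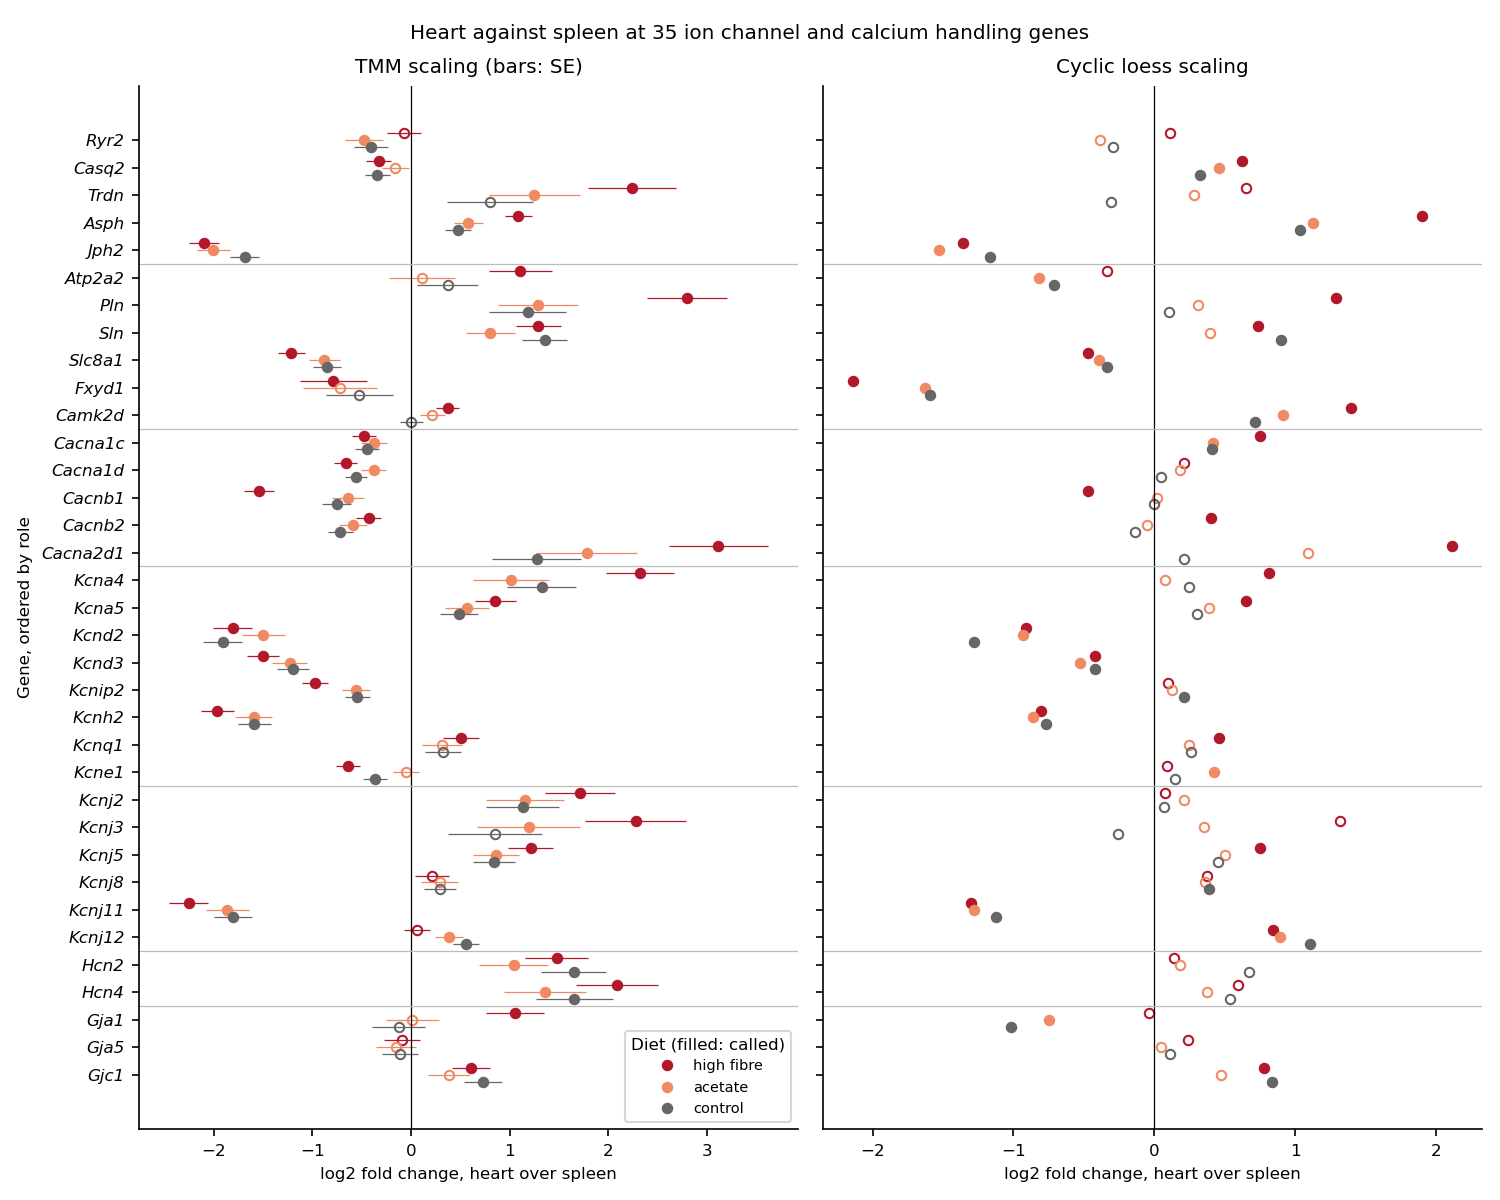
Log2 fold change of heart over spleen for all 35 genes, ordered by role, on high fibre, acetate and control. The left panel uses TMM scaling with SE bars and the right panel cyclic loess scaling, and filled points are called. Jph2, Kcnd2, Kcnd3, Kcnh2, Kcnj11 and Slc8a1 sit left of 0 and are filled on all 3 diets in both panels.

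**Figure D3:**
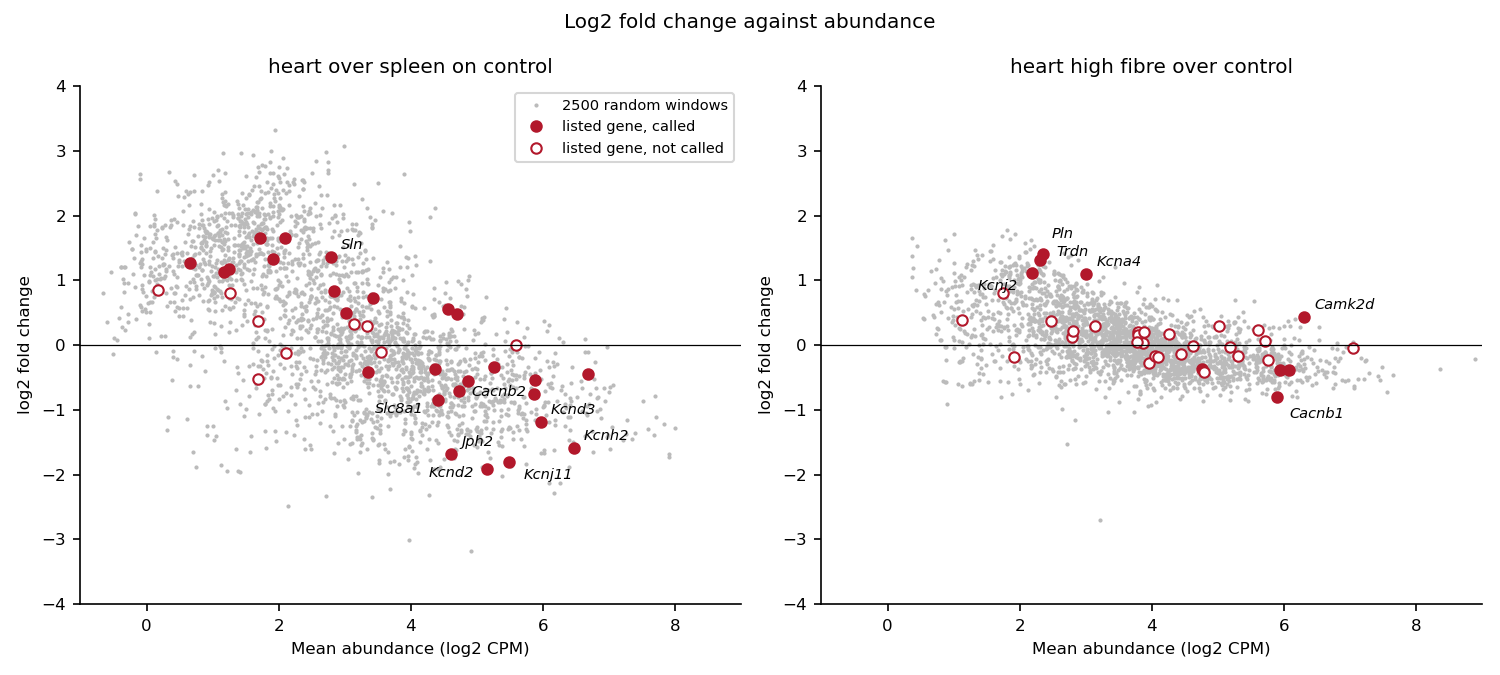
Log2 fold change against mean log2 CPM for the members (red, filled where called) over 2500 randomly drawn windows (grey), for heart over spleen on control and for high fibre over control in heart. In both comparisons the grey cloud slopes from positive values at low abundance to negative values at high abundance, and Jph2, Kcnd2, Kcnh2 and Kcnj11 lie towards its lower edge in the tissue comparison.

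Marker genes of cell types were read as captured DNA. The summed CPM of 10 cardiomyocyte marker windows was 263 to 322 in control hearts, against 581 to 687 in control spleens, and 2 of these windows were higher and 7 lower in heart. For 7 B cell marker windows the sum was 94.9 to 117.5 in control hearts, against 54.2 to 66.0 in control spleens, and 6 were higher in heart and 0 lower. Of the other lists, 4 of 5 endothelial windows were lower in heart and 1 higher, 3 of 5 fibroblast windows were higher and 1 lower, 3 of 7 T cell windows were higher and 1 lower, 2 of 4 pan-leukocyte windows were higher and 0 lower, and 2 of 5 erythroid windows were higher and 2 lower. The fibroblast sum did not follow its count, at 53.1 to 66.4 in control hearts against 62.2 to 91.6 in control spleens. No marker window was at 0 in all libraries of a group. Captured DNA at a marker gene is no measure of its expression, so these lists do not check the tissue labels. On control 40% of all windows were higher in heart and 32.7% lower. Counts from lists this short are therefore not read as particular to a list, and their part in the tissue comparison was not tested.

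Within the heart, high fibre and control differed at 9 of 35 members, 5 higher and 4 lower. Higher on high fibre were Pln and Camk2d of the uptake genes, Trdn of the release genes, the potassium channel gene Kcna4 and the inward rectifier Kcnj2. Lower were the calcium channel subunit Cacnb1 and the potassium channel genes Kcnip2, Kcnh2 and Kcne1. The 9 calls are 25.7% of the members, beside 26.2% of 33562 windows (12.6% higher and 13.6% lower). Under TMM scaling the count thus does not set the members apart. The median log2 fold change was 0.06 over the members and 0.02 over all windows. Libraries of the 2 groups did not overlap at 14 members, beside 33.7% of windows. No pacemaker or connexin gene was called. CPM in the sections on diet are scaled within a tissue, so they do not match the CPM given for heart against spleen.

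Pln, phospholamban (ENSMUSG00000038583, gene at chr10:53337686-53345999), held 6.92, 6.52, 6.71 and 8.46 CPM in high fibre hearts, against 1.37, 2.64, 3.33 and 2.86 CPM in control hearts. These are few reads per library, yet the groups did not overlap, and high fibre was higher by 1.399 ± 0.30 on the log2 scale (SE, adjusted p = 0.00625 in edgeR). Acetate hearts, at 1.79, 5.97 and 4.17 CPM, lay below high fibre and overlapped control. Trdn, triadin (ENSMUSG00000019787, gene at chr10:33083483-33476709), held 4.73, 6.34, 6.42 and 8.89 CPM in high fibre hearts, against 2.44, 2.64, 2.22 and 2.48 CPM in control hearts, with no overlap and a difference of 1.32 ± 0.33 on the log2 scale (SE, adjusted p = 0.0102 in edgeR). Its call was lost when high fibre replicate 4, the highest library, was left out (adjusted p = 0.0539). Camk2d, the calcium-dependent kinase that phosphorylates phospholamban and the ryanodine receptor (ENSMUSG00000053819, gene at chr3:126595487-126846326), held 89.7, 90.2, 90.2 and 94.8 CPM in high fibre hearts, against 69.3, 73.5, 55.8 and 71.6 CPM in control hearts. Every high fibre library lay above every control library, a difference of 0.43 ± 0.11 (SE, adjusted p = 0.0101 in edgeR).

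Kcna4, a pore of the slow transient outward current (ENSMUSG00000042604, gene at chr2:107290589-107326804), held 11.5, 13.04, 9.85 and 12.8 CPM in high fibre hearts, 2.09, 4.70 and 7.11 CPM in acetate hearts and 4.11, 6.28, 5.11 and 5.92 CPM in control hearts. High fibre stood above both other groups in every library, at 1.09 ± 0.23 over control (SE, adjusted p = 0.00581 in edgeR) and 1.19 ± 0.25 over acetate (SE, adjusted p = 0.0488). Kcnj2 (ENSMUSG00000041695, gene at chr11:111066164-111076825) held 6.01, 6.16, 5.99 and 6.17 CPM in high fibre hearts, against 1.98, 2.31, 2.89 and 3.44 CPM in control hearts, a difference of 1.11 ± 0.28 (SE, adjusted p = 0.00982 in edgeR). The high fibre libraries were nearly alike and all above the controls. Cacnb1 moved the other way. It held 42.8, 37.1, 40.95 and 40.7 CPM in high fibre hearts, 98.7, 59.9 and 53.3 CPM in acetate hearts and 77.02, 66.3, 73.8 and 66.3 CPM in control hearts. All high fibre libraries lay below all others, at -0.80 ± 0.14 against control (SE, adjusted p = 0.00453 in edgeR) and -0.78 ± 0.15 against acetate (SE, adjusted p = 0.0488). Kcnip2 held 63.2, 55.1, 61.6 and 52.1 CPM in high fibre hearts, against 79.5, 73.5, 76.7 and 73.5 CPM in control hearts. Kcnh2 held 54.1, 51.6, 53.1 and 49.2 CPM in high fibre hearts, against 80.2, 61.2, 60.0 and 69.3 CPM in control hearts. Kcne1 held 22.2, 24.5, 22.1 and 21.9 CPM in high fibre hearts, against 29.2, 28.9, 30.4 and 28.8 CPM in control hearts. Each of these genes was lower in every high fibre library than in any control library, at -0.39 ± 0.12, -0.38 ± 0.13 and -0.37 ± 0.11 (SE). Each lost its call in some fits with 1 library left out, as given further on.

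**Figure D4:**
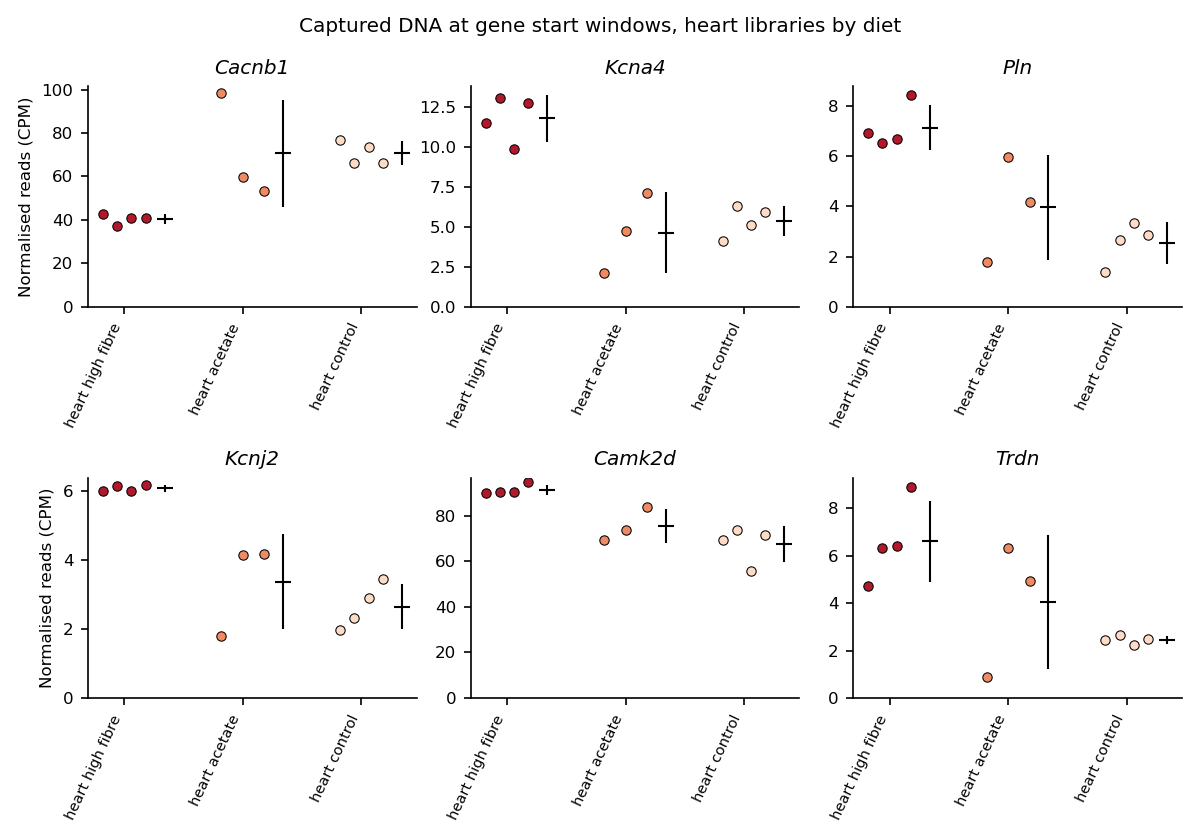
Captured reads in heart at 6 gene starts, in TMM-scaled CPM computed within heart, for high fibre, acetate and control from left to right. Points are libraries and bars are means ± SD (n = 4, 3 and 4). High fibre points lie above all control points for Kcna4, Pln, Kcnj2, Camk2d and Trdn and below them for Cacnb1.

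The diet difference also moved with abundance and with the Gm10800 share given above, whose part in it was not tested. Its median was 0.56 in the second decile of windows, 0.24 in the fourth and -0.27 in the highest. Pln, Kcnj2 and Trdn belong to the second decile and Kcna4 to the fourth. Camk2d and Cacnb1 both belong to the highest decile and lay on opposite sides of its median, whereas Kcnip2 and Kcnh2 in that decile and Kcne1 in the ninth, whose median was -0.26, lay close to the median of their decile. Under cyclic loess scaling 9 members were called higher and 1 lower, beside 8.82% and 8.23% of windows. The member share called higher was then above that of all windows, so this comparison of shares depends on the scaling. The higher calls of Pln (0.98), Trdn (0.86), Kcna4 (0.80), Kcnj2 (0.67) and Camk2d (0.68) and the lower call of Cacnb1 (-0.56) stood, while Kcnip2, Kcnh2 and Kcne1 were not called, at -0.14, -0.13 and -0.16. With library totals the median of all windows was 0.69 and all 30 called members were higher, beside 73.3% of windows higher and 0.0417% lower, Kcnip2 and Kcnh2 among them at 0.31 and 0.31, while Cacnb1 had -0.10. With 1 surrogate variable in the model no member was called, beside 0.125% of windows. Leaving out 1 heart library at a time gave 5 to 14 calls, with 5 without high fibre replicate 4, 6 without control replicate 1 or 3, and 14 without acetate replicate 1. Shares of all windows in these fits are not given here, so this range is not read as particular to the members. Cacnb1, Camk2d, Kcna4, Kcnj2 and Pln were called in all 11 of these fits. Kcnh2 was lost without any 1 of the high fibre libraries or control replicate 1, 3 or 4. Kcne1 was lost without high fibre replicate 1, 3 or 4 or control replicate 1 or 3. Kcnip2 was lost without high fibre replicate 2 or 4 or control replicate 1 or 3. Marker windows were called too, beside the 12.6% higher and 13.6% lower of all windows. On high fibre 0 of 10 cardiomyocyte windows were higher and 4 lower, and 2 of 5 fibroblast windows were higher and 0 lower. Of 4 pan-leukocyte windows 1 was higher and 3 lower. For B cells 1 of 7 was higher and 2 lower, and for T cells, erythroid cells and endothelium 0 were higher and 3 of 7, 2 of 5 and 1 of 5 lower. Lists this short are not read as set apart from all windows by these counts, and their part in the result was not tested.

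Between acetate and control hearts, 0 of 35 members were called in edgeR and 0 in DESeq2, with 1 at an unadjusted p under 0.05, beside 0% of all windows called and 2.5% at that unadjusted p. Libraries failed to overlap at 3.09% of windows. Jph2 came closest, with 16.1, 13.2 and 11.9 CPM in acetate hearts, against 17.96, 12.9, 20.0 and 19.3 CPM in control hearts. These overlapped, and the log2 fold change of -0.36 had an unadjusted p of 0.0350 in edgeR. Trdn held 0.894, 6.33 and 4.95 CPM in acetate hearts, against 2.44, 2.64, 2.22 and 2.48 CPM in control hearts. Without the sparse acetate replicate 1, Trdn was higher at 1.09 (adjusted p = 0.0360 in edgeR) and Kcnj11, at -0.51, was lower (adjusted p = 0.0318), beside 2.02% of all windows called. High fibre against acetate in heart gave 2 calls, Kcna4 and Cacnb1 as above, beside 1.38% of windows, and 9 members without overlap, beside 21.4%. Kcna4 was higher, beside 0.188% of windows, and Cacnb1 lower, beside 1.19%. Neither call held under every setting. Relative log expression scaling gave 0 calls, loess kept Kcna4 at 0.95 and Cacnb1 at -0.51 and added Camk2d at 0.50, beside 1.62% of windows, and leaving out any single high fibre library, or control replicate 2, 3 or 4, gave 0. The 2 comparisons with high fibre share its libraries, and those with control share the control libraries.

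In spleen, 28 of the 35 members passed the count filter, and no member was called for any pair of diets in edgeR or DESeq2, beside 0% of 24871 windows. Trdn, Pln, Cacna2d1, Kcna4, Kcnj2, Kcnj3 and Hcn4 were too sparse to test. At an unadjusted p under 0.05 there were 3 members for high fibre against control, 1 for acetate against control and 2 for high fibre against acetate, beside 2.02%, 3.51% and 3.31% of windows. Members without overlap, counted over all 35 with the untested ones included, numbered 1, 1 and 4 in the same order. The shares over tested windows only were 1.64%, 2.67% and 2.38%, so the sets differ. The 4 include Pln, which was not tested. Gja1, connexin 43, the main connexin of working heart muscle, held 0.953, 3.03, 0.892 and 1.04 CPM in high fibre spleens, 2.05, 4.69, 3.09 and 2.34 CPM in acetate spleens and 2.11, 3.94, 3.09 and 2.82 CPM in control spleens. Apart from high fibre replicate 2, the high fibre libraries lay below every other spleen library, and the differences of -0.93 against control and -0.90 against acetate did not pass. Asph held 9.77, 10.99, 11.6 and 11.9 CPM in high fibre spleens, 13.3, 16.7, 14.9 and 13.2 CPM in acetate spleens and 10.98, 18.01, 14.4 and 14.3 CPM in control spleens. High fibre lay below acetate in every library, at -0.38 without a call. Kcne1 held 14.2, 12.6, 14.1 and 14.6 CPM in acetate spleens, against 16.4, 18.997, 16.2 and 16.3 CPM in control spleens. Acetate was lower in every library, and the difference of -0.28 did not pass after adjustment. Sln held 2.60, 4.48, 5.41 and 1.11 CPM in acetate spleens, against 1.96, 1.97, 2.21 and 2.67 CPM in control spleens, which overlapped, and had 0.51 without a call.

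Whether a diet acted differently in heart and spleen was tested as a difference of differences. For high fibre over control, no member was called in edgeR and 10 had an unadjusted p under 0.05, beside 0.0559% of windows called (0.0177% higher and 0.0383% lower) and 16.4% at that unadjusted p. Cacnb1 had the smallest p, with a high fibre effect in heart that differed from that in spleen by -0.79 ± 0.21 on the log2 scale (SE, adjusted p = 0.128 in edgeR). Asph followed at 0.61 (adjusted p = 0.169 in edgeR), and loess scaling called it at 0.87 (adjusted p = 0.0499), beside 0.321% of windows. Library totals called 14 members, all higher, beside 18.8% of windows. Cacnb1 was called without heart acetate replicate 1, and both genes without spleen control replicate 1. For acetate over control, no member was called and none had an unadjusted p under 0.05, beside 0% of windows called and 4.57% at that unadjusted p. Kcne1 had the smallest p, at 0.31 ± 0.18 (SE), and Sln had -0.55 ± 0.34 (SE), both with an adjusted p of 0.9999 in edgeR.

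A wider list of 75 other genes of cardiac excitation and calcium handling, among them sodium channel subunits, further calcium and potassium channels, sodium and calcium pumps, calmodulins and inositol trisphosphate receptors, was read in the same comparisons. Of those tested, 24 of 70 were higher and 36 lower in heart than spleen on high fibre, 22 and 32 on acetate, and 23 and 34 on control, with medians of -0.41, -0.23 and -0.26. Over all windows 45.1% were higher and 35.6% lower on high fibre, 34% and 29% on acetate, and 40% and 32.7% on control, with medians of 0.24, 0.19 and 0.19. In heart, 5 of 69 were higher and 17 lower on high fibre than control, with a median of -0.21, beside 12.6% and 13.6% of all windows and a median of 0.02, and none differed between acetate and control. None of 64 was called between diets in spleen. These values use TMM scaling, under which the differences moved with abundance. The wider list was not matched to all windows by abundance, and its loess values are not given here. Its medians are therefore not read as particular to the list.

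The number of CG in the 300-base promoters varied widely among members and had little rank relation to the reads captured in their windows. RefSeq promoters were matched for 27 of 35 members, and Trdn, Asph, Atp2a2, Sln, Kcnq1, Kcne1, Kcnj11 and Gjc1 had none in the table. For the 5 members with several annotated starts the 5′-most was used, and other starts can differ, since Cacna1d holds 4 CG at that start and 63 at another, and Cacna1c 3 and 57. At the starts used, counts ran from 1 in Pln to 42 in Cacna2d1, with a median of 10. Across those 27 genes and starts, Spearman's rho between CG count and mean CPM was 0.0064 in control hearts and 0.014 in control spleens, and between CG count and the log2 fold change of heart over spleen it was 0.025. These are descriptions across genes, which share libraries and depth and are not independent replicates. Of the 27 starts, 17 lie within 100 bases of the edge of the annotated gene. How far the promoters overlap the counted windows is not known, so rho does not describe the CG content of those windows. The printed promoters were chosen by their p-values between the tissues, so they do not bear on this relation. Among them, Kcnd2 with 26 CG and Jph2 with 7 were both lower in heart, as were Cacnb2 with 35 and Slc8a1 with 9.

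**Figure D5:**
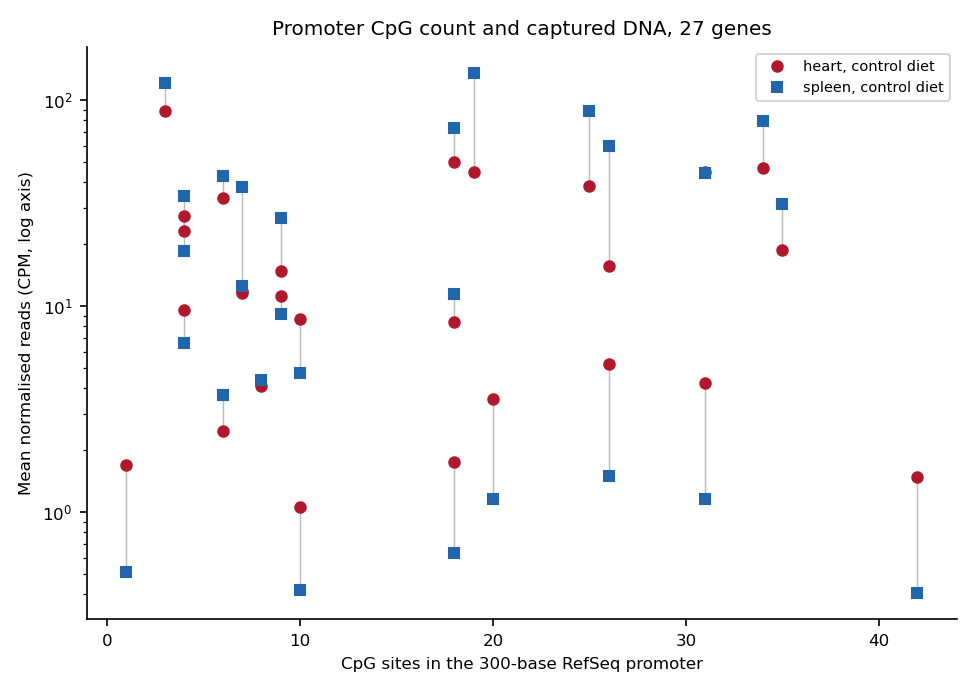
CG count in the 300-base RefSeq promoter against mean TMM-scaled CPM (log axis) for 27 members, in control hearts and control spleens. Genes with few and with many CG spread over the same range of CPM in both tissues.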

How the data were processed

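Captured DNA was sequenced for 23 libraries, 11 of heart and 12 of spleen. Each deposited table holds raw read counts per 3 kb gene-start window, not normalized. Per the submitters' processing notes, the tools were edgeR 3.16.5, featureCounts 1.5.1, BWA 0.7.10 and bcl2fastq 2.19.1.403, with build GRCm38. Window placement and the handling of duplicate and multiply mapped reads are not given in the sources used here, and reads shared between paralogous or overlapping windows could not be resolved.

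Groups came from the sample titles. Counts of each tissue were fitted over all 3 diets in edgeR 4.0.16 (R 4.3.3) with TMM scaling, filterByExpr (minimum count 10), quasi-likelihood tests and Benjamini-Hochberg adjustment at 5%, over all windows in each of 11 comparisons. Tissue comparisons and differences of differences used 1 fit over both tissues. CPM within a tissue and CPM over both tissues have different scaling and are not compared. Libraries of a group differed by more than sampling noise in every pair (chi-square per window 1.39 to 8.58). Gene groups were described by counts and medians only. Alternatives used limma 3.58.1 (loess), DESeq2 1.42.0 and sva 3.50.0. Promoters were matched by symbol, with the 5′-most start where a gene had several. Any member could be named, and per-library values were given for up to 6 called members of smallest p per comparison (8 for heart against spleen on control), or the 2 of smallest p where none was called, with further members added after their values were seen. The members, lists and tests were chosen with earlier results of these data known.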

Additional observations from a re-analysis of the deposited data

Results flagged for a closer look

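Of 175 sets of 4 libraries (35 genes in the 5 groups of 4), 17 held a library whose gap to its neighbour exceeded Dixon's 95% critical value, and chance flags about 1 in 20. Values are TMM-scaled CPM within a tissue.

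In heart, Camk2d in high fibre replicate 4 had 94.8 CPM, the highest of its group, and Kcne1 and Sln in high fibre replicate 2 had 24.5 CPM and 13.8 CPM. Among control hearts, replicate 3 had 24.0 CPM for Cacnb2 and 4.67 CPM for Fxyd1, and replicate 4 had 10.5 CPM for Sln.

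In high fibre spleens, replicate 1 had 32.6 CPM for Jph2 and 60.2 CPM for Kcnj11, replicate 2 had 3.03 CPM for Gja1 and 0.159 CPM for Kcnj3, replicate 3 had 5.17 CPM for Fxyd1 and 10.5 CPM for Gja5, and replicate 4 had 0.130 CPM for Cacna2d1. The Kcnj3 and Cacna2d1 values are 1 read each, with 0 reads in the rest of the group. The rule flags such a set by construction, so the chance rate does not apply to it. In acetate spleens, replicate 1 had 1.09 CPM for Kcnj2. Among control spleens, replicate 1 had 60.3 CPM for Cacnb1, and replicate 2 had 19.0 CPM for Kcne1 and 12.4 CPM for Gja5.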

How the results depend on the processing

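For high fibre against control in heart, the 9 calls became 30 with library totals and 0 with 1 surrogate variable. For high fibre against acetate, the 2 calls became 0 with relative log expression scaling, 4 with library totals and 0 with the surrogate variable. Heart against spleen gave 14 calls on high fibre with the surrogate variable (5 higher and 9 lower), 15 on acetate with loess (6 and 9) and, in place of 25, 17 on acetate with the surrogate variable (6 and 11). The difference of the high fibre effect between tissues had 0 calls, against 14 with library totals and 1 with loess. Shares of all windows moved too under the settings for which they are given above, and for the other settings they are not given here. The counts in this section are therefore not read as particular to the members. The cause of these changes was not tested. With library totals, the heart over spleen difference reversed for Slc8a1 on control (0.036) and acetate (0.071), Cacnb2 on control (0.18), and Cacnb1 and Kcnd3 on high fibre (0.048 and 0.077), none of them called.

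Leaving out 1 library at a time gave 5 to 14 calls for high fibre against control in heart, 0 to 2 for acetate against control, 0 to 3 for high fibre against acetate and 0 for each spleen comparison. Heart against spleen gave 29 to 31 on high fibre, 19 to 25 on acetate and 25 to 27 on control. The difference between tissues gave 0 to 2 for the high fibre effect and 0 for the acetate effect. Shares of all windows are not given for most of these fits, so the ranges are not read as particular to the members.

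The labels do not say whether heart and spleen libraries of the same number come from the same mouse. Their deviations correlated at r over 0.1 in 4 of 11 pairs, and 5 correlated best with their own number, so pairing was not established and is not excluded. With the number as a block, the difference of the high fibre effect had 1 call (Cacnb1) and heart against spleen on acetate 18 (6 higher and 12 lower). High fibre against control in heart had 10 with another block, the replicate number within a diet, which does not bear on that pairing. Shares of all windows in the blocked fits are not given here, so these counts are not read as particular to the members. Deviations of heart libraries with the same replicate number on different diets correlated at r over 0.1 in 5 of 10 pairs. Depth limits the genes under about 10 reads per spleen library, where 7 members were not tested.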
